A study of Mus musculus with 12 samples.

Results

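Kit, Flt3, Csf1r, Csf3r and Epor encode receptors through which blood progenitors read growth factors. These 5 genes were taken by symbol from the array annotation. Each had 1 row in the expression table, and all 5 were among the 16860 genes tested, since their mean values lay above the filter on dim rows (a log2 value of 4.70). They were described in mouse bone marrow cells that lost Tet2, a dioxygenase that acts on methylcytosine, or kept it. All groups came from Tet2fl/fl;CreER mice, whose Cre recombinase responds to tamoxifen, and carried retroviral AML1-ETO, a fusion protein of acute myeloid leukaemia, marked by GFP. They were Kit-enriched when isolated, replated in methylcellulose, and then grown in suspension with stem cell factor and with IL-3 and IL-6 at 10 ng/ml each.

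The 4 groups were Tet2-/- cells at passage 10 (Tet2-/- p10), Tet2fl/fl cells at passage 10 (Tet2fl/fl p10), Tet2-/- cells at passage 2 (Tet2-/- p2) and Tet2fl/fl cells at passage 2 (Tet2fl/fl p2), with 3 arrays each. Tet2-/- cells had received 4-hydroxytamoxifen (4-OHT, 200 nM) and Tet2fl/fl cells ethanol, for 4 days, so 4-OHT, Cre activity and loss of Tet2 cannot be told apart. RNA came from immature myeloid cells sorted as GFP-positive, CD16/32-positive and negative for CD11b and Gr1. Whether the replicates were cultured separately is not stated in the labels, and p-values therefore cover only the variation among the arrays, which may be technical. The ages of the mice are not stated in the labels used here.

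Background on the receptors is as follows. Kit and Flt3 are receptor tyrosine kinases of stem and progenitor cells, and Csf1r is the related kinase that directs monocytes and macrophages. Kit is kept by mast cells and lost by most other maturing blood cells, and its ligand is stem cell factor (Kitl). Csf3r (the receptor for G-CSF) and Epor (the receptor for erythropoietin) have no kinase of their own and signal through JAK kinases in neutrophil and red cell precursors.

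The 250 bases before the start sites of Kit and Flt3 are shown, as given by RefSeq for GRCm38.p6 in the direction of the gene. As described below, Kit passed for genotype in the average over both passages. Flt3 did not pass for genotype in the main limma fit (adjusted p = 0.135 at passage 2 and in the average). Capitals mark CpG dinucleotides, the main sites of DNA methylation in mammals. The Kit stretch lies at chr5:75574737-75574986 on the plus strand and belongs to the upstream of 2 listed start sites. The Flt3 stretch lies at chr5:147400490-147400739 on the minus strand.
Kit: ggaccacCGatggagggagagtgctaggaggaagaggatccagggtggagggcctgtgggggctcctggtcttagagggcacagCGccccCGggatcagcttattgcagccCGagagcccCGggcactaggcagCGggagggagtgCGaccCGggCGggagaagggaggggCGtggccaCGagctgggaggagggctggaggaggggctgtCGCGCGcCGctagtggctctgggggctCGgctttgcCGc
Flt3: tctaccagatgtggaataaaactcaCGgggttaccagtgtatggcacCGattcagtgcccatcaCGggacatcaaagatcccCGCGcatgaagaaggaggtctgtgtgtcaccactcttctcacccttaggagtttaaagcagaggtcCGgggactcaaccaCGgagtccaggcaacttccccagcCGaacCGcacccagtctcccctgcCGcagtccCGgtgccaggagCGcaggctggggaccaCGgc

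The Kit stretch holds 17 CpGs and the Flt3 stretch 13. Of the 32851 promoters in the table, 23.5% have at least as many as Kit and 31.5% at least as many as Flt3, and the median is 6. Csf3r and Epor, the other members with an entry (4 of 5 matched), have 6 each. The core letters bound by RUNX factors, TGTGGT or TGCGGT on either strand, occur 1 time each before Flt3 and Epor and not in the windows of Kit and Csf3r. They occur in 18.6% of all promoters, and the second form itself contains a CpG. A GATA sequence (the letters GATAA or GATAG after A or T, on either strand) occurs before Epor alone among the 4, and in 26.5% of all promoters. DNA methylation was not measured on these arrays.

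The arrays are described here in brief. Array medians were 5.57 to 5.68 on the log2 scale, and the correlation within groups over all rows was 0.984 to 0.991. Tet2 itself averaged 9.83 in Tet2-/- p10 and 9.88 in Tet2fl/fl p10 cells, and 9.94 in Tet2-/- p2 and 9.97 in Tet2fl/fl p2 cells. The 1 row covers the whole gene and does not check the deletion. Of the sort markers, Fcgr3 (CD16) had group means of 10.8 to 11.1, and Itgam (CD11b) of 8.01 to 8.20. Ly6g (part of Gr1) averaged 6.96 in Tet2-/- p10, 5.64 in Tet2fl/fl p10, 5.81 in Tet2-/- p2 and 5.72 in Tet2fl/fl p2 cells (SD 0.637, 0.115, 0.661 and 1.02, n = 3 each). CD11b message was thus measured above the filter in cells sorted as CD11b-negative.

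Kit was lower in Tet2-/- than in Tet2fl/fl cells by a similar amount at both passages. Its log2 values were 10.36, 10.04 and 9.56 in Tet2-/- p10 cells, against 11.14, 10.52 and 10.75 in Tet2fl/fl p10 cells (replicates 1, 2 and 3). At passage 2 they were 9.98, 9.83 and 9.69 in Tet2-/- cells, against 10.92, 10.44 and 10.63 in Tet2fl/fl cells. The 6 Tet2-/- arrays all lay below the 6 Tet2fl/fl arrays, from 9.56 to 10.36 against 10.44 to 11.14. Groups separated in this way, in the lower direction, for 1.13% of all genes. In order of level, Tet2fl/fl p10 and Tet2fl/fl p2 overlapped, as did Tet2-/- p10 and Tet2-/- p2, with a gap of 0.67 between the means of the middle pair (Tet2-/- p10 and Tet2fl/fl p2).

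**Figure D1:**
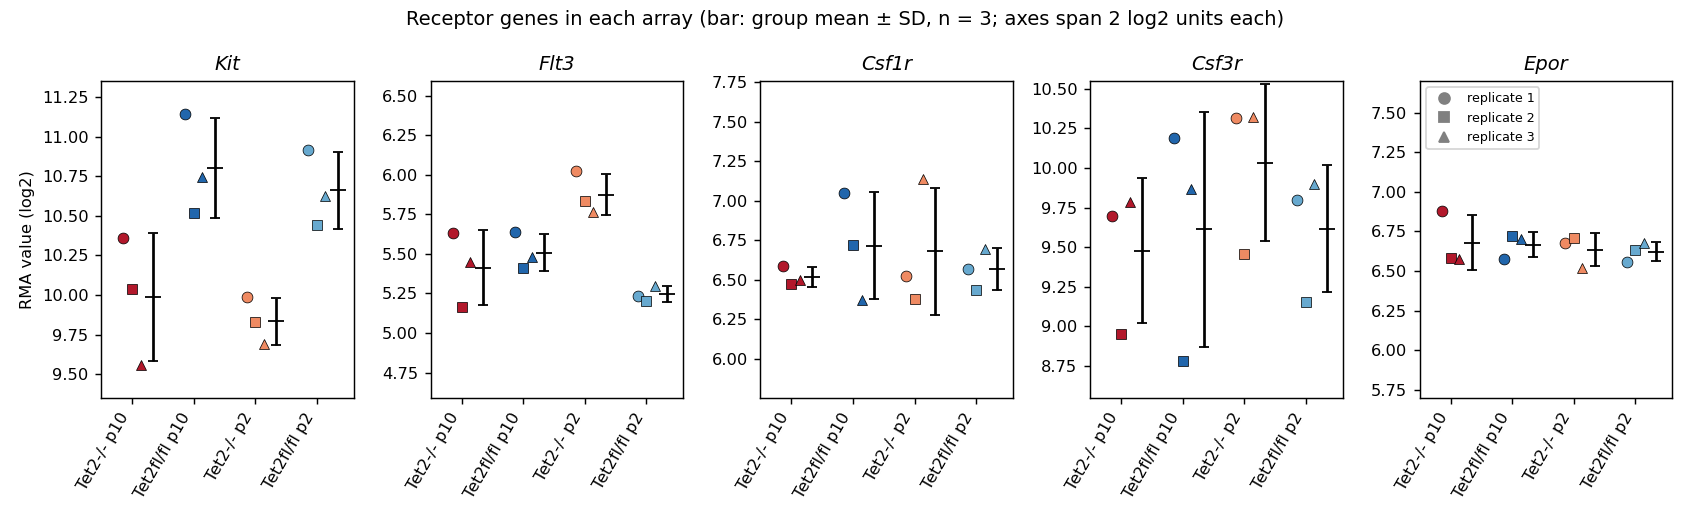
RMA values (log2, vertical axis) of the 5 receptor genes in each of the 12 arrays, with group means and SD beside the points. Kit is lower in all 6 Tet2-/- arrays than in any Tet2fl/fl array, Flt3 is highest in Tet2-/- p2 cells, and Epor varies little.

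The Kit difference was -0.82 ± 0.21 at passage 10 (SE, 95% confidence interval -1.28 to -0.36) and -0.83 ± 0.21 at passage 2 (-1.29 to -0.37). These correspond to levels 1.76 and 1.78 times lower. In limma's test over all genes neither passed at an adjusted p of 0.05 (0.161 at passage 10 and 0.201 at passage 2). Both passed once replicate numbers entered the fit as a fixed block (0.0246 and 0.0418), and neither did with a random block (0.0749 and 0.106). What the replicate numbers mark is not stated in the labels. Over all genes, arrays with the same number deviated together in all 18 pairs (correlations of 0.201 to 0.517). The random block estimated a correlation of 0.123 within numbers. Between arrays of the same number, Kit differed by -0.78, -0.48 and -1.19 at passage 10 and by -0.93, -0.61 and -0.94 at passage 2. All 6 same-number differences were negative, which held for 8.51% of genes.

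Averaged over both passages, Kit fell by 0.82 ± 0.15 (1.77 times lower, adjusted p = 0.022 in limma, and 0.0032 with the block). The call was lost when any of 4 arrays was left out: replicate 2 of Tet2-/- p10 (adjusted p = 0.0511), replicate 1 (0.0505) or 2 (0.0553) of Tet2-/- p2, or replicate 3 of Tet2fl/fl p2 (0.0533), with differences of -0.86 to -0.82. It was also lost without replicate number 2 (-0.96, 0.166) or 3 (-0.70, 0.246) in all groups. The genotype effects at the passages differed by 0.01 ± 0.30 (-0.64 to 0.66, adjusted p = 0.999). In these sorted bulk samples, fewer Kit-expressing cells and less Kit RNA per cell cannot be told apart.

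**Figure D2:**
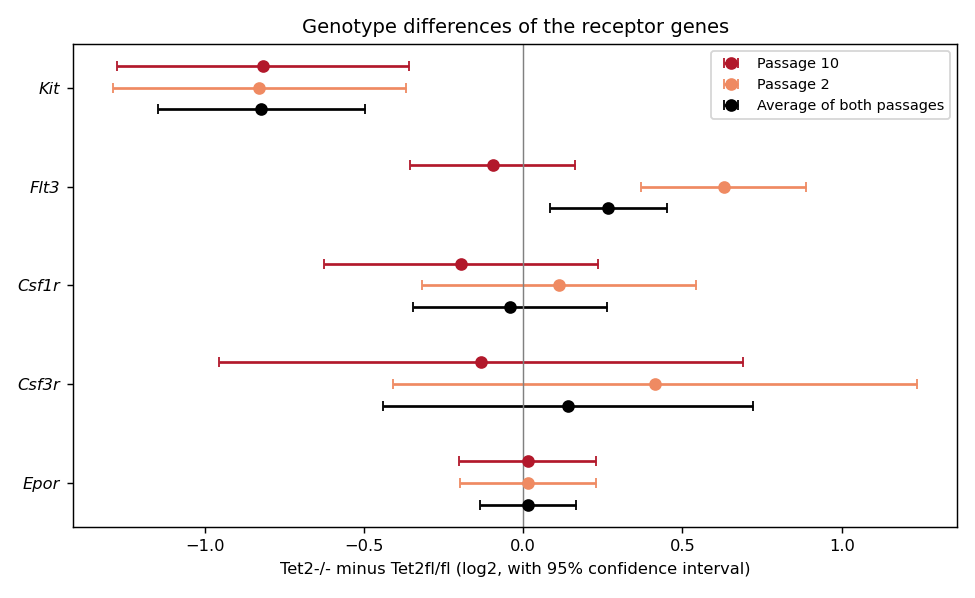
Differences between Tet2-/- and Tet2fl/fl cells (log2, horizontal axis) for each receptor gene at passage 10, at passage 2 and averaged, with 95% confidence intervals from limma without the block. The intervals of Kit lie below 0 in all comparisons shown, that of Flt3 lies above 0 at passage 2 and in the average, and those of Csf1r, Csf3r and Epor span 0.

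Flt3 was highest in Tet2-/- p2 cells, while the genotypes overlapped at passage 10. Its values at passage 10 were 5.63, 5.16 and 5.45 in Tet2-/- cells, against 5.64, 5.41 and 5.48 in Tet2fl/fl cells. At passage 2 they were 6.02, 5.83 and 5.77 in Tet2-/- cells, against 5.23, 5.20 and 5.30 in Tet2fl/fl cells. All 3 Tet2-/- p2 arrays lay above the other 9, while the groups overlapped at passage 10. The share of all genes with such a separation from the other 9 arrays was not computed. Within a passage, the genotypes did not overlap for 16.4% of all genes at passage 10 and 15.3% at passage 2. These are low values, since the row's mean was 5.51 and the filter lay at 4.70.

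The Flt3 difference was -0.10 ± 0.12 at passage 10 (-0.36 to 0.16, adjusted p = 0.861) and 0.63 ± 0.12 at passage 2 (0.37 to 0.89, 1.55 times higher). The passage 2 difference had an adjusted p of 0.135 in limma, 0.0418 with the fixed block and 0.0636 with the random block. Same-number differences at passage 10 were -0.01, -0.24 and -0.04, against 0.79, 0.64 and 0.47 at passage 2. Averaged over both passages Flt3 differed by 0.27 ± 0.08 (adjusted p = 0.135, 0.0484 with the fixed block and 0.076 with the random block). The change of the genotype effect between the passages was -0.72 ± 0.17. Its unadjusted p of 0.0011 was the 10th smallest of 16860, and its adjusted p was 0.999 (0.841 with the block).

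The passage differences of Flt3 had opposite signs in the genotypes. In Tet2-/- cells it differed by -0.46 ± 0.12 between passage 10 and passage 2, with groups that did not overlap (adjusted p = 0.0602 in limma, 0.0224 with the block). In Tet2fl/fl cells it differed by 0.26 ± 0.12, also without overlap (0.486 and 0.266 with the block). Groups did not overlap for 28.3% of all genes in Tet2-/- cells and 14.5% in Tet2fl/fl cells. By level, Tet2-/- p2 stood above the other groups, and the neighbours among the other three overlapped.

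**Figure D3:**
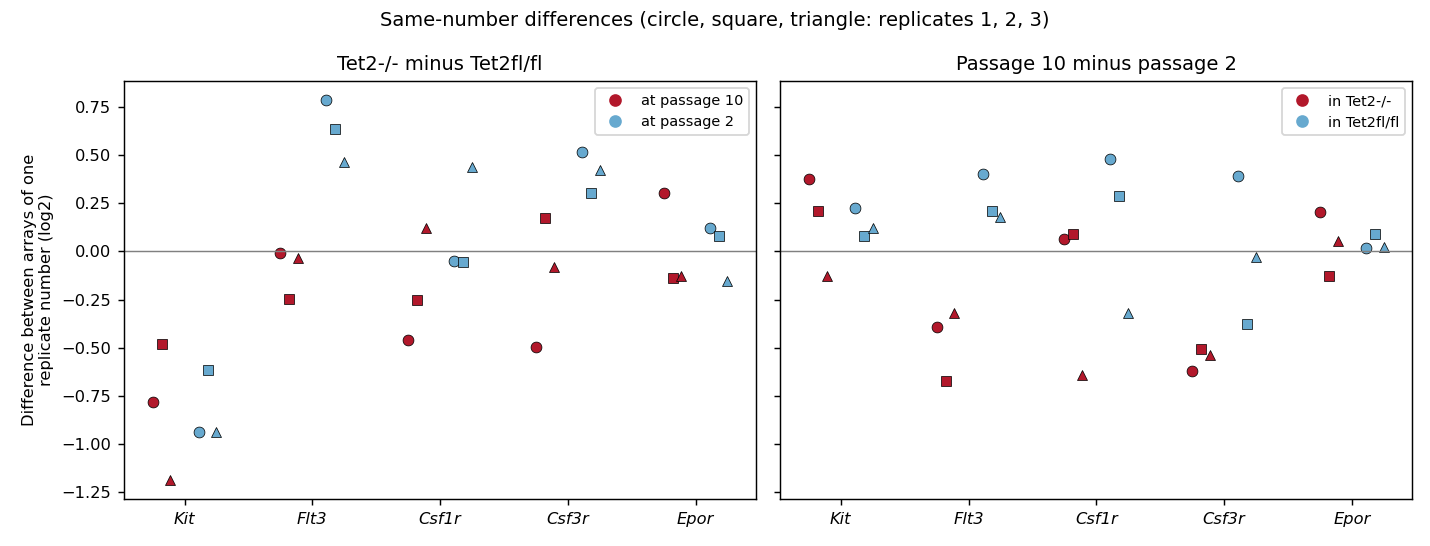
Differences (log2, vertical axis) between arrays that share a replicate number, for genotype at each passage (left) and for passage in each genotype (right). All Kit points for genotype are negative, and the Flt3 points are positive at passage 2 and between -0.24 and -0.01 at passage 10.

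Csf3r varied more between replicate numbers than between groups. Its values were 9.70, 8.95 and 9.79 in Tet2-/- p10 cells, against 10.19, 8.78 and 9.87 in Tet2fl/fl p10 cells. At passage 2 they were 10.32, 9.46 and 10.32 in Tet2-/- cells, against 9.80, 9.16 and 9.90 in Tet2fl/fl cells. Replicate 2 was the lowest array of all 4 groups, at 0.46 to 0.83 below its group mean. All groups overlapped.

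Csf3r passed no test without the block. Its genotype difference was -0.13 ± 0.38 at passage 10 (-0.96 to 0.69, adjusted p = 0.953) and 0.41 ± 0.38 at passage 2 (-0.41 to 1.24, adjusted p = 0.762). With the block the SE shrank to 0.13, and the passage 2 difference had an unadjusted p of 0.0086 and an adjusted p of 0.195. Between passage 10 and passage 2 Csf3r differed by -0.55 in Tet2-/- cells, with same-number differences of -0.62, -0.51 and -0.53. That difference passed with the fixed block (adjusted p = 0.0301), and neither with the random block (0.288) nor without a block (0.42). In Tet2fl/fl cells the same-number differences were 0.39, -0.38 and -0.03, with a mean of -0.0056.

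Csf1r showed no difference beyond its spread. It had 6.59, 6.47 and 6.50 in Tet2-/- p10 cells, against 7.05, 6.72 and 6.37 in Tet2fl/fl p10 cells. At passage 2 it had 6.52, 6.38 and 7.14 in Tet2-/- cells, against 6.57, 6.43 and 6.70 in Tet2fl/fl cells. The groups overlapped, with a wide spread in Tet2fl/fl p10 and a single high array in Tet2-/- p2 (replicate 3). The differences were -0.20 ± 0.20 at passage 10 (-0.63 to 0.23) and 0.11 ± 0.20 at passage 2 (-0.32 to 0.54), with adjusted p of 0.818 and 0.893.

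Epor was the flattest of the 5. Its values were 6.88, 6.58 and 6.57 in Tet2-/- p10 cells, against 6.57, 6.72 and 6.70 in Tet2fl/fl p10 cells. At passage 2 they were 6.68, 6.71 and 6.52 in Tet2-/- cells, against 6.56, 6.63 and 6.67 in Tet2fl/fl cells. The differences were 0.01 ± 0.10 at passage 10 (-0.20 to 0.23) and 0.02 ± 0.10 at passage 2 (-0.20 to 0.23), and their sign turned under equal array medians (-0.02 and -0.03). All neighbours in level overlapped for Csf1r, Csf3r and Epor.

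Counted over the 5 genes, limma called 0 for genotype at passage 10, where it called 0.225% of all genes, and 0 at passage 2, where it called 0.00593%. At an unadjusted p under 0.05 there were 1 (Kit) and 2 (Kit and Flt3), against 10.6% and 9.95% of genes. With the block 1 passed at passage 10 (Kit, 1.31% of genes) and 2 at passage 2 (Kit and Flt3, 0.409%). For the average 1 passed (Kit, 1.72%). The block raised this to 2 (Kit and Flt3, 5.41%), the same genes that lay under 0.05 unadjusted without it (16.1% of genes). For passage in Tet2-/- cells 0 passed (2.98% of genes), with 1 at an unadjusted p under 0.05 (Flt3, against 21.6%), and 2 with the block (Flt3 and Csf3r, both lower, 7.94%). For passage in Tet2fl/fl cells 0 passed with or without the block (0% of genes without it and 0.0415% with it), with 1 under 0.05 unadjusted (Flt3, 0.0471), against 10.2% of genes. For the change of the genotype effect 0 passed either way (0% and 0.00593% of genes), with 1 under 0.05 unadjusted without the block (Flt3, against 3.22% of genes).

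The genes with the most similar profiles over the 12 arrays were found by Pearson's r, which describes arrays that share groups and replicate numbers. Nearest to Kit were Kcne3, a potassium channel subunit (r = 0.971), Slfn5 of the Schlafen family (0.971) and Niban2 (0.956). Their average genotype differences were -1.27, -0.97 and -0.64, which the choice by likeness to Kit largely fixes. Their r on deviations from group means was 0.845 to 0.924. Most opposite were Rnd3 (-0.925), Psme4, a proteasome activator (-0.872), and Arhgap26, a GTPase-activating protein (-0.864). Their average genotype differences were 1.27, 0.14 and 0.45.

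For Flt3 the highest r were those of Ptprv (0.858), Zdhhc1 (0.840) and the small nucleolar RNA Snora61 (0.827), and the lowest those of Prrt1 (-0.922), Cpxm1 (-0.897) and Mon2 (-0.889). None of these 6 passed for genotype at either passage (adjusted p of 0.223 to 0.988). Csf3r was nearest to Peli2, a ubiquitin ligase of innate immune signalling (0.952), Tgfbi, an extracellular matrix protein (0.951), and the lectin Clec4b2 (0.939), and most opposite to Slc37a3 (-0.942), Cpsf2 (-0.934) and Dhrs1 (-0.932). For Csf1r they were Sympk (0.854), Anks3 (0.844) and Gpx1 (0.834), with Htr3b (-0.909), Trim34a (-0.906) and Oga (-0.871) at the other end. For Epor they were the ATP-gated channel P2rx7 (0.872), H2ac1 (0.845) and Rnase13 (0.811), with Mia (-0.851), Ogdhl (-0.851) and Arg2 (-0.815) at the other end. None of these 18 passed in the average genotype comparison.

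The pathway around the receptors was read from lists, with the average genotype comparison as the measure (median of all genes -0.0038). Of 5 measured ligand genes none passed. Nearest were Csf1, the ligand of Csf1r (-0.24 ± 0.13, adjusted p = 0.398), and Kitl (0.07 ± 0.08, 0.717). Csf1 averaged 9.76 ± 0.139 (SD, n = 3) in Tet2-/- p10 and 9.64 ± 0.416 in Tet2fl/fl p10 cells. It averaged 8.94 ± 0.229 in Tet2-/- p2 and 9.55 ± 0.133 in Tet2fl/fl p2 cells, so Tet2-/- p2 was the low group. Between the passages of Tet2-/- cells, a comparison that called 2.98% of all genes, it rose by 0.82 ± 0.19 (adjusted p = 0.043, 0.0322 with the block). The call held in 3 of 12 fits that left out 1 array (adjusted p of 0.0216 to 0.14), and in 0 of those that left out a replicate number. In Tet2fl/fl cells it differed by 0.09 (0.89).

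Among 8 other cytokine receptor genes measured, 7 were lower in sign (median -0.30) and none passed. Csf2ra, the GM-CSF receptor subunit (-0.53 ± 0.12, adjusted p = 0.0543), and Il5ra, the IL-5 receptor subunit (-0.97 ± 0.26, 0.0822), passed only with the block (0.0214 and 0.0412). Of 23 measured genes of kinase signalling none passed (median 0.01). Map2k2 (-0.26, 0.0563, with the block 0.0472) and Map2k1 (0.36, 0.143), both MAP kinase kinases, came closest. Pdgfrb, a type III receptor kinase like Kit, differed by 0.24 ± 0.58 (0.9), and the shedding proteases Adam17 (0.21, 0.29) and Adam10 (-0.04, 0.791) did not pass.

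Of 16 measured JAK-STAT and survival genes 2 passed, in a comparison that called 1.72% of all genes. Pim2, a survival kinase induced by cytokines, rose by 0.75 ± 0.12 (adjusted p = 0.0124). Its group means were 8.68 in Tet2-/- p10, against 7.75 in Tet2fl/fl p10, and 8.39 in Tet2-/- p2, against 7.81 in Tet2fl/fl p2 cells. Cyclin D2 (Ccnd2) fell by 0.36 ± 0.07 (0.0247). Leaving out 1 array, Pim2 passed in 12 of 12 fits and Ccnd2 in 7. Both passed in 0 of the fits that left out a replicate number. The list's median was 0.07. With the block 4 genes of the list were higher and 1 was lower, where 5.41% of all genes passed.

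Of 20 measured negative regulators 4 passed, 1 higher and 3 lower, with a median of 0.02 (1.72% of all genes passed). With the block 1 was higher and 4 were lower (5.41% of all genes). Socs2, a feedback inhibitor of JAK-STAT signalling, fell by 0.47 ± 0.07 (adjusted p = 0.0102), with group means of 10.6 in Tet2-/- p10, against 11.1 in Tet2fl/fl p10, and 10.4 in Tet2-/- p2, against 10.9 in Tet2fl/fl p2 cells. Dusp6, a phosphatase that inactivates ERK kinases, fell by 0.49 ± 0.09 (0.0247). Sh2b3 (Lnk), an adaptor that restrains Kit and JAK2, fell by 0.31 ± 0.06 (0.0259). Sla2, an adaptor related to the Src family, rose by 0.50 ± 0.11 (0.0472). Leaving out 1 array, Socs2 passed in 12 of 12 fits, Dusp6 in 7, Sh2b3 in 6 and Sla2 in 3. Without a replicate number, Socs2 passed in 1 fit and Dusp6, Sh2b3 and Sla2 in 0.

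Of 19 measured transcription factors known to act on these receptor genes none passed (median -0.05). Nearest were Cebpa, a factor of granulocyte and monocyte precursors that acts on Csf3r (0.52 ± 0.16, adjusted p = 0.119), and Gata2, which acts on Kit (-0.28 ± 0.09, 0.145). Gata2 passed with the block (0.0461) and Cebpa did not (0.0696).

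**Figure D4:**
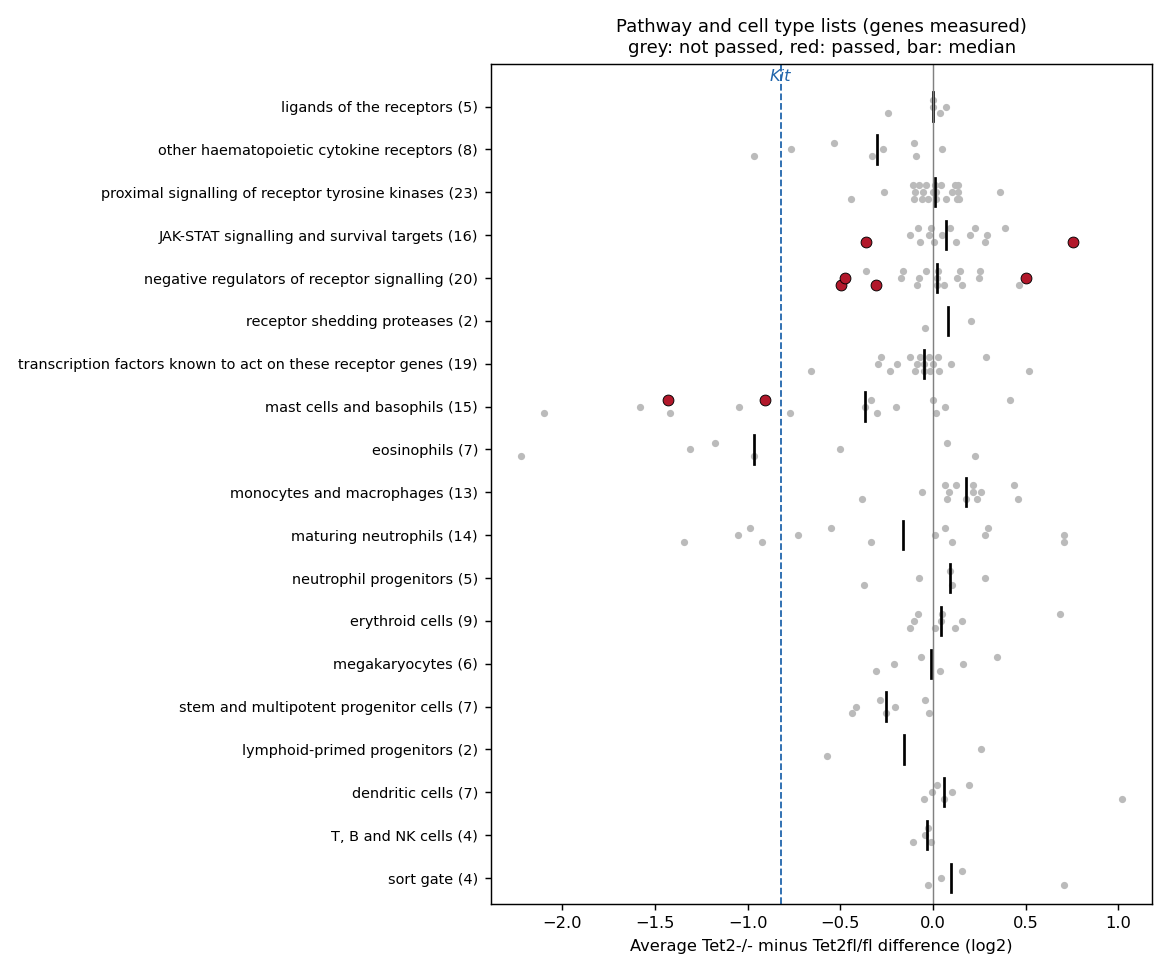
Average difference between Tet2-/- and Tet2fl/fl cells (log2, horizontal axis) of each measured gene by list, with the list's median as a bar and the number measured in brackets. Genes that passed in limma are red, and the dashed line marks Kit at -0.82. Among the lists shown, passing genes occur for JAK-STAT and survival targets, negative regulators, and mast cells and basophils.

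Markers of other cell types were set beside Kit. Of 17 mast cell and basophil markers 15 were measured, 11 with negative average differences (median -0.37), and 2 fell, Tpsab1, a tryptase (-1.43 ± 0.22, adjusted p = 0.0124), and Hpgds, a prostaglandin synthase (-0.91 ± 0.14, 0.0102). With the block 7 were lower. Of all genes 1.72% passed in either direction without the block and 5.41% with it. Tpsab1 and Hpgds each passed in 12 of 12 fits that left out 1 array, and in 1 of those that left out a replicate number. The mean of the 15 ranged from 9.36 to 10.2 in Tet2-/- p10, against 10.3 to 10.8 in Tet2fl/fl p10, and from 9.86 to 9.99 in Tet2-/- p2, against 10.3 to 10.4 in Tet2fl/fl p2 cells, so it too was lower in every Tet2-/- array. The carboxypeptidase gene Cpa3, named after its value was seen, lay at 13.3 to 13.4 in all groups, close to the highest value on the arrays (13.6). Of the other list members Mcpt1 lay below the filter and 1 was not analysed here. The part of these cells in the Kit difference was not tested.

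Of 7 measured eosinophil markers 5 were negative (median -0.97) and none passed without the block. The list shares Il5ra with the cytokine receptors above, and its median is the Il5ra difference. Epx, a peroxidase, differed by -2.22 ± 0.50 (adjusted p = 0.0501, 0.0169 with the block). Their mean overlapped between genotypes at passage 10 (7.03 to 8.55 in Tet2-/- and 7.02 to 9.03 in Tet2fl/fl cells) and not at passage 2 (7.44 to 7.65 and 8.75 to 9.05). Of 7 measured stem and multipotent progenitor markers all had negative differences (median -0.25) and none passed, Cd27 (-0.21, 0.126) and Eng (-0.41, 0.193, with the block 0.0096) being nearest.

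Beside Flt3, of 6 markers of lymphoid-primed progenitors 2 were measured, Satb1 (0.26, adjusted p = 0.257) and Dntt (-0.57, 0.549), and Rag2 and Ccr9 lay below the filter. Of 7 measured dendritic cell markers none passed, the nearest being Zbtb46 (0.19, 0.111) and H2-Ab1 (1.02, 0.351, with the block 0.0427). Of 13 measured monocyte and macrophage markers 11 were positive (median 0.18) and none passed, nearest Irf8 (0.46, 0.109) and Adgre1 (0.26, 0.208, with the block 0.0419). Of the 9 measured erythroid markers none passed (median 0.04), Rhag (0.69, 0.158, with the block 0.0137) and Tfrc (0.16, 0.594) being nearest. These are averages over both passages, while the genotypes separated in Flt3 at passage 2 only. At passage 2 the medians were -0.18 for lymphoid-primed, 0.14 for dendritic, 0.19 for monocyte and macrophage and 0.02 for erythroid markers. None of these markers passed there, and the median of all genes was -0.0029.

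Beside Csf3r, the 5 neutrophil progenitor markers had a mean of 11.2 ± 0.185 (SD, n = 3) in Tet2-/- p10 and 11.8 ± 0.316 in Tet2-/- p2 cells. They averaged 11.2 ± 0.772 in Tet2fl/fl p10 and 11.7 ± 0.296 in Tet2fl/fl p2 cells. The lowest array of each group for these markers was replicate 2, as for Csf3r. Of the 5, 4 differed in the negative direction with passage in Tet2-/- cells (median -0.44, none passed, 1 lower with the block), where the median of all genes was 0.04. Of 14 maturing neutrophil markers 10 were negative there (median -0.30, none passed, 5 lower and 1 higher with the block). Of all genes 2.98% passed in that comparison without the block and 7.94% with it, in either direction. In Tet2fl/fl cells, where Csf3r differed by -0.0056 with passage, 4 of the 5 progenitor markers (median -0.54) and 13 of the 14 maturing markers (median -0.66) were negative too, and none passed. Their part in the Csf3r values was not tested.

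**Figure D5:**
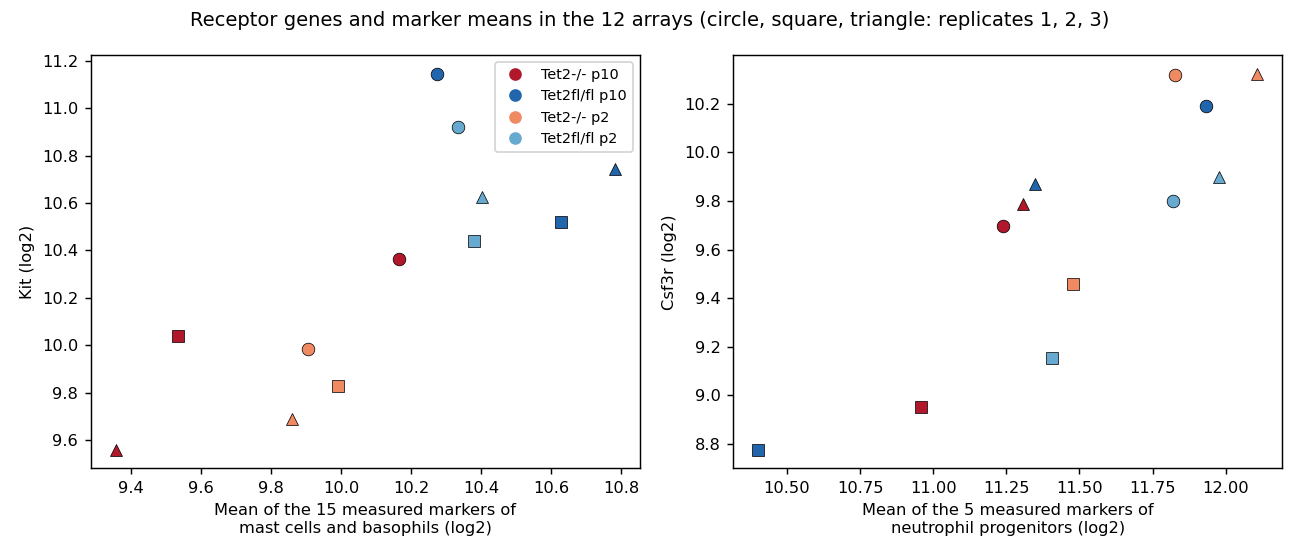
Kit against the mean of 15 mast cell and basophil markers (left) and Csf3r against the mean of 5 neutrophil progenitor markers (right), in log2 values, with 1 point per array. The 6 Tet2-/- arrays lie lower on both axes of the left panel than the 6 Tet2fl/fl arrays, and the replicate 2 arrays (squares) are the lowest of their group on both axes of the right panel.

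For genotype, the nearest neutrophil progenitor markers were Ms4a3 (0.28, adjusted p = 0.271) and Ctsg (-0.07, 0.566), the nearest maturing neutrophil markers Padi4 (0.28, 0.122, with the block 0.0246) and Cxcr2 (0.30, 0.143), and the nearest megakaryocyte markers Itga2b (0.35, 0.213, with the block 0.0416) and Vwf (-0.21, 0.549). None passed without the block. Lymphoid genes did not pass either, the nearest being Cd3e (-0.11, 0.62) and Cd79a (-0.04, 0.848), and 3 of that list's 8 genes lay below the filter. Of the sort markers Ly6g (0.70, 0.337) and Itgam (0.16, 0.814) were nearest.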

How the data were processed

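Each of the 12 samples was hybridised to its own Affymetrix Mouse Gene ST array, with 100 ng of labelled total RNA. The authors deposited log2 values computed by RMA with Affymetrix Power Tools, per the submitters' processing notes, which name no versions. Depth does not apply, and the number of arrays limits the precision.

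Rows were kept when their mean reached the 30th percentile of all 41345 rows. Rows with 1 gene symbol were used (23521, against 1814 with several and 16010 with none). Symbols were updated by gene ID through a RefSeq table of GRCm38.p6 (23328 matched, 193 kept theirs), and the brightest row stood for a gene. limma (version 3.58.1, R 4.3.3) estimated 1 mean for each group from the 12 arrays together. Its two-sided p-values were adjusted over all 16860 genes (Benjamini-Hochberg), and genes under 0.05 passed. Confidence intervals are 95% and values after ± are standard errors unless SD is stated.

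Replicate numbers 1 to 3 come from the labels. Deviations from group means correlated at 0.201 to 0.517 for same-number arrays of different groups and at -0.369 to 0.0532 for others, so a fit with the number as a fixed block ("the block") is given beside results whose call it changes. The receptor genes, the 21 lists and the tests were chosen with earlier results of these data known. The rule named all receptor genes, per list up to 4 passing genes by size in the average genotype comparison or else the 2 with the smallest p, and per receptor gene the 3 highest and 3 lowest correlations among named genes. Motifs were counted in the 250 bases before each start in the RefSeq promoter table. The steps were tested on simulated data for the genotype difference at passage 2 only. The simulated noise was independent between arrays, so the shared deviation of same-number arrays was not covered. Alternatives are listed in the closing section.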

Additional observations from a re-analysis of the deposited data

Results flagged for a closer look

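Flt3 stood out because its same-number differences pointed one way at one passage and the other way at the other. Between Tet2-/- and Tet2fl/fl cells they were -0.01, -0.24 and -0.04 at passage 10 and 0.79, 0.64 and 0.47 at passage 2, a change of -0.72 in the mean difference. Seen by passage, they were -0.39, -0.67 and -0.32 in Tet2-/- cells and 0.40, 0.21 and 0.18 in Tet2fl/fl cells, the same change of -0.72. The test of that change did not pass over all genes (unadjusted p = 0.0011, adjusted p = 0.999 in limma). The passage 10 differences are small, and the mean turned to 0.03 without Tet2-/- p10 replicate 2.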

How the results depend on the processing

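Of 794 recomputed differences of single receptor genes, 711 kept direction and side of the threshold, 6 no longer passed, 10 newly passed and 67 changed sign. With the replicate number as a block, 2 receptors passed at passage 2 (Kit -0.83, Flt3 0.63), 1 at passage 10 (Kit -0.82), 2 in the average and 2 for passage in Tet2-/- cells. The random block gave 1 there (Flt3) and left the receptor counts of the other comparisons as they were without a block. Array weights gave 1 at passage 2 (Flt3 0.70), 2 in the average and 1 for passage in Tet2-/- cells. Over all genes the average comparison called 290, against 912 with the block, 776 with array weights and 678 with the random block. It called 98 to 496 when 1 array was left out, and 152, 14 and 14 without replicate number 1, 2 and 3. Passage in Tet2-/- cells called 503, against 1339 with the block, 1728 with array weights, 1047 with the random block and 0 in a fit of those 6 arrays alone. It called 0 without Tet2-/- p2 replicate 1 or 3 or Tet2-/- p10 replicate 2 or 3, 2 without Tet2-/- p10 replicate 1, and 0 to 1 without a replicate number. Among the list genes called, checked in fits chosen after seeing the data, Socs2, Tpsab1 and Hpgds each passed in 1 of the 3 fits that left out a replicate number, and Pim2, Ccnd2, Dusp6, Sh2b3, Sla2 and Csf1 in 0.

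Sign changes concerned differences that were small in the main limma fit, and their cause was not tested. Recomputed values could be larger, up to 0.41 for Csf3r with passage in Tet2fl/fl cells. Equal array medians gave Epor -0.030 at passage 2, -0.015 at passage 10, -0.022 in the average and 0.014 for the change of the genotype effect, and Csf3r 0.016 for passage in Tet2fl/fl cells. Quantile normalisation gave Epor -0.034 at passage 2, -0.017 in the average and 0.035 for the change of the effect, and Csf3r 0.012 for passage in Tet2fl/fl cells. Array weights gave Epor -0.011 at passage 10, Csf3r 0.15 for passage in Tet2fl/fl cells, and Kit -0.011 for passage in Tet2-/- cells and -0.21 for the change of the effect.

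Leaving out arrays or replicate numbers, the average comparison called 0 to 1 receptors, and Kit ranged from -0.96 to -0.70. Epor ranged from -0.037 to 0.10 at passage 2, -0.13 to 0.090 at passage 10, -0.085 to 0.092 in the average, -0.057 to 0.13 for passage in Tet2-/- cells and -0.10 to 0.11 for the change of the effect. Csf1r ranged from -0.11 to 0.26 at passage 2, -0.20 to 0.065 in the average, -0.31 to 0.078 for passage in Tet2-/- and -0.019 to 0.38 in Tet2fl/fl cells. Csf3r ranged from -0.55 to 0.16 at passage 10, -0.068 to 0.29 in the average and -0.29 to 0.41 for passage in Tet2fl/fl cells. Flt3 ranged from -0.20 to 0.029 at passage 10. Kit ranged from -0.034 to 0.37 for passage in Tet2-/- cells, -0.028 to 0.28 in Tet2fl/fl cells and -0.18 to 0.22 for the change of the effect. Flt3 lay below the stricter filter at the 50th percentile and has no value there. A fit of only the arrays compared was not made for the average and the change of the effect, which use all arrays. With 3 arrays a group, small differences were not detectable. Flt3 values lay near the filter.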
